A study of Mus musculus with 12 samples.

Results

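The comparison described here is that of wild-type mouse intestinal organoids given prostaglandin E2 (PGE2) with wild-type organoids given vehicle, 2 libraries against 2, taken by their labels from a series of 12 libraries in 6 groups. Each library is a CUT&RUN profile of acetylated lysine 27 on histone H3 (H3K27ac): an antibody guides a nuclease to the mark and the DNA released beside it is sequenced. Both groups are labelled wild type and were grown from isolated crypts in Matrigel with EGF, Noggin, R-spondin, a glycogen synthase kinase 3 inhibitor and a second kinase inhibitor, so that Wnt signalling was already stimulated in the vehicle group. The treated group received PGE2 at 50 nM, which the series' design text names as 6,16-dimethyl PGE2. The sample characteristics give day 3 and the treatment protocol day 6. Strain, age and the number of animals were not found in the labels. The remaining 8 libraries (Ptger4 knockout organoids and arachidonic acid) entered the model that estimates the spread between libraries, and are quoted beside a result only where they bear on it.

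PGE2 is made from arachidonic acid by cyclooxygenases and PGE synthases, and acts through the receptors EP1 to EP4. EP2 and EP4 raise cyclic AMP (cAMP), which activates protein kinase A and the transcription factor CREB, and in the intestinal epithelium this route is known for chloride and fluid secretion, epithelial repair and cross-talk with Wnt and EGF signalling. H3K27ac marks active promoters and enhancers, and a change in it is not a measure of transcript level.

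The measured value is the peak score that the authors deposited for each interval and library. For the SEACR caller 166471 intervals were tested (median width 1759 bp), on the scale log2(score + 0.0579). The sequencing depth is unknown and no score normalization is stated. Nothing in the labels tells if replicates were grown as separate cultures or taken from separate animals. The p-values therefore describe the spread among these particular libraries, which may be technical. The fit also pools that spread over features. Of 16 markers of intestinal epithelium all had an interval, with a median score between 0.201 and 0.233 in the 4 libraries against 0.158 to 0.172 over all genes. Endothelial markers, 13 of 14 with an interval, had medians of 0.171 and 0.197 with vehicle and 0.142 and 0.151 with PGE2. Those of fibroblast, immune, muscle and neural, and liver and lung markers ran from 0.0983 to 0.178. Among the 12 libraries, replicate 2 of the knockout PGE2 group stood apart (mean Spearman correlation with the others 0.157, against 0.293 to 0.393 for the rest), and counts that depend on it are given without it. The libraries of the comparison also differed over the whole genome. The median score was 0.121 in both vehicle libraries, and 0.118 and 0.116 with PGE2. The 8 strongest intervals, led by one at chr2:98663328-98667871 with no gene within 50 kb, held 5.52% and 5.93% of the signal with vehicle and 6.77% and 7.64% with PGE2. In both measures the groups did not overlap, and the exact permutation test of 2 against 2 libraries gave its smallest possible two-sided p of 0.333. What part this shift in the share of signal had in the results was not tested.

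At single intervals no difference passed. In limma with Benjamini-Hochberg adjustment over all intervals 0 of 166471 were under an adjusted p of 0.05, and 9648 (5.80%) were under an unadjusted p of 0.05, of which 4110 (2.47%) were higher with PGE2 and 5538 (3.33%) lower. PGE2 libraries lay wholly above vehicle at 15.8% of the intervals and wholly below at 20.7%. The median log2 change was -0.032, and it was lowest not at the weakest or the strongest intervals but between them: with intervals ordered by mean score into 10 equal classes, it was 0.027 in class 1, the weakest, -0.065 in class 8 and -0.023 in class 10. By position, the median change was -0.025 within 2 kb of a gene end, -0.014 in gene bodies, and -0.051 more than 50 kb from any protein-coding gene. The X chromosome, at 0.051 over 2031 intervals, was the one chromosome with a median above 0, and the autosomes ranged from -0.050 to -0.011.

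The intervals with the smallest p that had a gene within 50 kb and no overlap between the groups were taken as a description, since none passed. Of those higher with PGE2, the interval inside Klhdc1, a kelch-domain gene, scored 0.0677 and 0.0982 with vehicle and 0.360 and 0.262 with PGE2 (log2 change 1.38 ± 0.28 SE, limma adjusted p = 0.603; chr12:69235592-69236433). The interval 50 bp from the start of Osbpl5, which encodes an oxysterol-binding protein of lipid transfer, scored 0.108 and 0.0176 with vehicle and 0.262 and 0.345 with PGE2 (1.68 ± 0.35, adjusted p = 0.603; chr7:143757058-143757794). Gpr132 encodes a G protein-coupled receptor that responds to oxidized fatty acids and lactate. An interval 11491 bp from it scored 0.0777 and 0.0431 with vehicle and 0.193 and 0.312 with PGE2 (1.38 ± 0.30, adjusted p = 0.681). The other named intervals on this side lay at Plpp1, Snx25, Pus10, Fhit, Diaph2 and Cspg4, and the 9 ran from 736 to 2152 bp in width and from 0.94 to 1.68 in log2 change. Their vehicle scores, 0.00781 to 0.165, lay mostly under the median of all intervals, and their PGE2 scores reached 0.142 to 0.360.

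On the lower side, the interval inside 3110009E18Rik scored 0.409 and 0.373 with vehicle and 0.105 and 0.0935 with PGE2 (-1.51 ± 0.28, limma adjusted p = 0.494; chr1:120139765-120140498). Gstm1 encodes a glutathione S-transferase, and an interval 2425 bp from it scored 0.271 and 0.335 with vehicle and 0.0270 and 0.102 with PGE2 (-1.62 ± 0.31, adjusted p = 0.558; chr3:108008884-108009825). Vav2 encodes a guanine nucleotide exchange factor. Its interval scored 0.456 and 0.210 with vehicle and 0.0817 and 0.0581 with PGE2 (-1.54 ± 0.30, adjusted p = 0.558), so that the vehicle libraries differed by more than the gap between the groups. The other 7 lay at Ambn, Setd4, Rbm20, Gm973, Smap2, Aldh18a1 and Ncf1, the last a subunit of the phagocyte NADPH oxidase. Ncf1 had the lowest PGE2 scores of the 10, at 0.0183 and 0.00713 against 0.160 and 0.162 with vehicle. Of the 19 intervals named, 2 lay within 2 kb of a gene end, 10 inside a gene and 7 outside one.

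**Figure D1:**
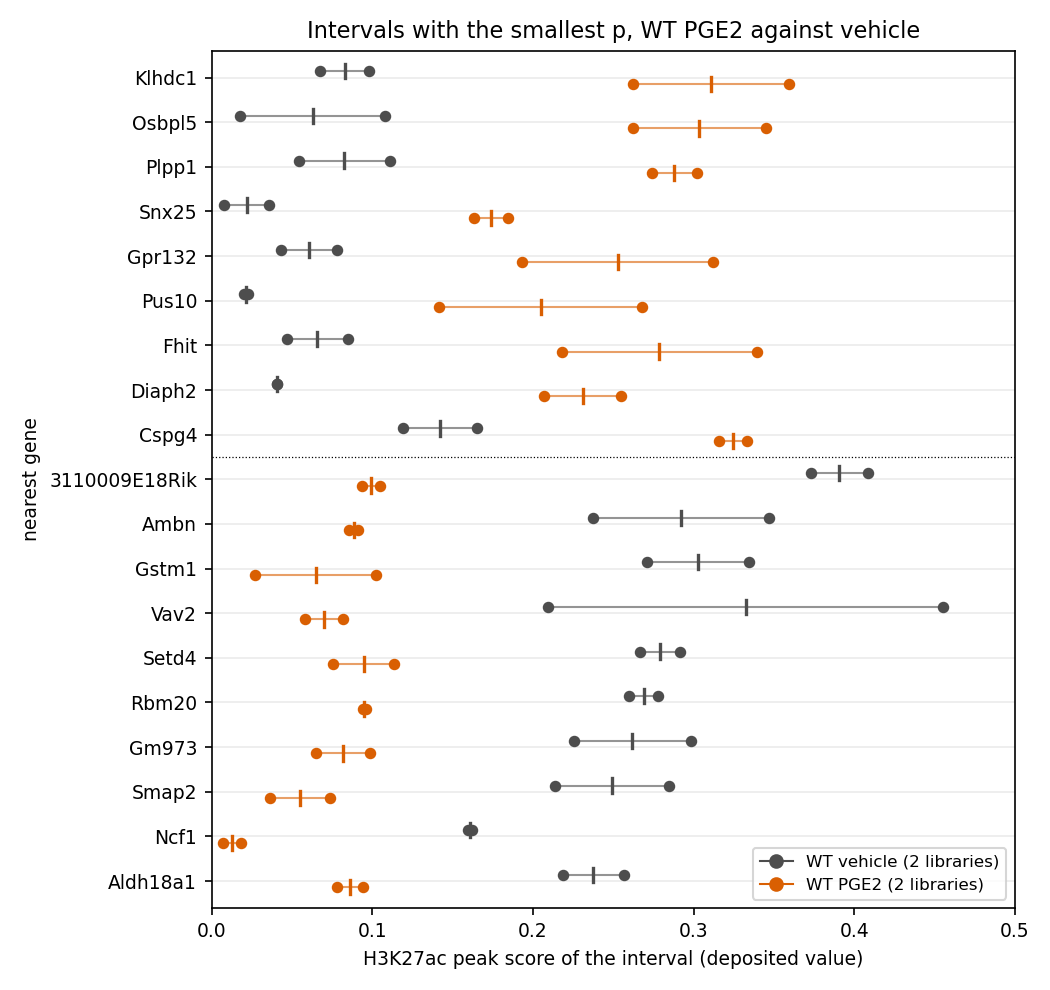
H3K27ac peak score (horizontal axis, deposited value) of the 19 named SEACR intervals in the 2 vehicle and the 2 PGE2 wild-type libraries; points are libraries, lines join the 2 of a group and ticks are their means. The 9 intervals above the dotted line were higher with PGE2 and the 10 below it lower; the choice of intervals sets the gap between the groups, and none passed the adjusted threshold.

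The genes of PGE2 reception and metabolism came next, each by its strongest interval, the one with the highest mean score over the 12 libraries. As a background, 17575 genes had such an interval, 6.10% were under an unadjusted p of 0.05 (2.84% higher and 3.26% lower), 52.1% were lower with PGE2, and the median change was -0.014. Of 9 prostanoid receptor genes 7 had an interval within 50 kb, 5 were lower and 2 higher, and 0 were under an unadjusted p of 0.05. The interval over the start of Ptger4, the gene of EP4, scored 0.182 and 0.253 with vehicle and 0.183 and 0.174 with PGE2 (-0.21 ± 0.25, limma adjusted p = 0.952). The groups overlapped, so no difference beyond the spread between libraries was seen at the receptor gene itself. Ptger2, the gene of EP2, was at 0.183 and 0.174 with vehicle and 0.127 and 0.159 with PGE2, at an interval 45075 bp from the gene (-0.24 ± 0.24). Ptger3, the gene of EP3, which lowers cAMP, was at 0.188 and 0.195 with vehicle and 0.239 and 0.128 with PGE2, and its sign turned on 1 library: without PGE2 replicate 2 the change of -0.09 became 0.25. Ptgfr, the receptor gene for prostaglandin F2 alpha, was at 0.0949 and 0.0531 with vehicle and 0.122 and 0.119 with PGE2 (0.45 ± 0.31, limma adjusted p = 0.903). The remaining 3 were Ptgdr, a prostaglandin D2 receptor gene (-0.23 ± 0.22), its second receptor gene Ptgdr2 (0.04 ± 0.27) and the prostacyclin receptor gene Ptgir (-0.08 ± 0.43), the last 2 with signs that turned when 1 library was left out.

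The sequence before the Ptger4 start is shown because that interval covers it. It is the 250 bases up to the start (RefSeq, GRCm38.p6, chr15:5244188-5244437, minus strand), and in the RefSeq window of 250 bases before to 50 after the start none of the motifs listed further on as marked in capitals was found.

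Ptger4: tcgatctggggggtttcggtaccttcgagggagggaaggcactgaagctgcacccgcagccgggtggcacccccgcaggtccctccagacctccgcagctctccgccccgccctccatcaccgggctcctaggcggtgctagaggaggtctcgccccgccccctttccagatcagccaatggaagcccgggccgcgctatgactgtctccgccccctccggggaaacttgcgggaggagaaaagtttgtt

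Of 12 genes that make, export or break down PGE2, 8 were higher and 4 lower by the strongest interval (median 0.043), with 0 under an unadjusted p of 0.05. Ptges, the inducible PGE synthase, was at 0.0560 and 0.0541 with vehicle and 0.110 and 0.112 with PGE2 (0.58 ± 0.36, limma adjusted p = 0.890). Both PGE2 libraries lay above both vehicle libraries, as they did for 17% of all genes and for 2 of the 12 genes of this list. The vehicle scores of Ptges were smaller than the constant added to every score before the log2 was taken, so they lay near the floor of the scale. At Ptgs2, the inducible cyclooxygenase, 1 PGE2 library was high (0.253) while the other (0.0995) lay below vehicle (0.113 and 0.102). Hpgd, which inactivates PGE2, was at 0.259 and 0.238 with vehicle and 0.194 and 0.224 with PGE2 (-0.20 ± 0.20, adjusted p = 0.938). The list's sign depended on the libraries and on the way intervals were summarised: the median was -0.126 without PGE2 replicate 1, -0.031 by gene means, and of the opposite sign also without vehicle replicate 1 or PGE2 replicate 2.

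Genes named as targets of cAMP and CREB were lower more often than the background, although none passed. Of 21 such genes 17 were lower (81.0% against 52.1% of all genes), with a median of -0.197. The median was below 0 under all 8 alternatives tried for the lists, from -0.287 to -0.087, and by the mean over all intervals of a gene 16 of 17 were lower (median -0.087, against 55.1% lower and a median of -0.019 over 11081 gene means). Pck1, the gluconeogenic enzyme PEPCK and a classical CREB target, was at 0.284 and 0.359 with vehicle and 0.137 and 0.193 with PGE2 (-0.77 ± 0.20, limma adjusted p = 0.750). Both vehicle libraries lay above both PGE2 libraries, as they did for 19.4% of all genes. Per1, a clock gene induced by cAMP, was at 0.233 and 0.238 with vehicle and 0.174 and 0.171 with PGE2 (-0.35 ± 0.20, adjusted p = 0.883). Nr4a3, an immediate early nuclear receptor gene, had a gene mean change of -0.48 ± 0.14 (adjusted p = 0.410), and Fosb, an AP-1 subunit, one of -0.33 ± 0.12 (adjusted p = 0.514). Dusp6, a phosphatase of ERK kinases, stood on the other side of the list, at 0.123 and 0.172 with vehicle and 0.298 and 0.226 with PGE2 (0.64 ± 0.21, adjusted p = 0.793).

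The upstream parts of the pathway gave no shared direction. Of 21 genes of cAMP production and its effectors 13 were lower by the strongest interval (median -0.112), but 11 of 20 were higher by gene mean (median 0.034). The adenylyl cyclase genes differed among themselves. Adcy3 was at 0.170 and 0.198 with vehicle and 0.104 and 0.0798 with PGE2 (-0.69 ± 0.30, limma adjusted p = 0.851), and Adcy5 at 0.0905 and 0.0691 with vehicle and 0.197 and 0.144 with PGE2 (0.73 ± 0.35, adjusted p = 0.858). Of 15 cAMP phosphodiesterase genes, which break cAMP down, 10 were lower (median -0.125, but 0.011 without vehicle replicate 2 and 0.097 near gene ends). The exception with the smallest p was Pde1b, at 0.0396 and 0.143 with vehicle and 0.168 and 0.165 with PGE2 (0.68 ± 0.32, adjusted p = 0.858). Of 13 CREB family and coactivator genes 9 were higher (median 0.067, and -0.017 by gene mean). Of 15 AP-1 subunit genes 11 were lower (median -0.120, below 0 under all 8 alternatives), with 0 under an unadjusted p of 0.05.

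**Figure D2:**
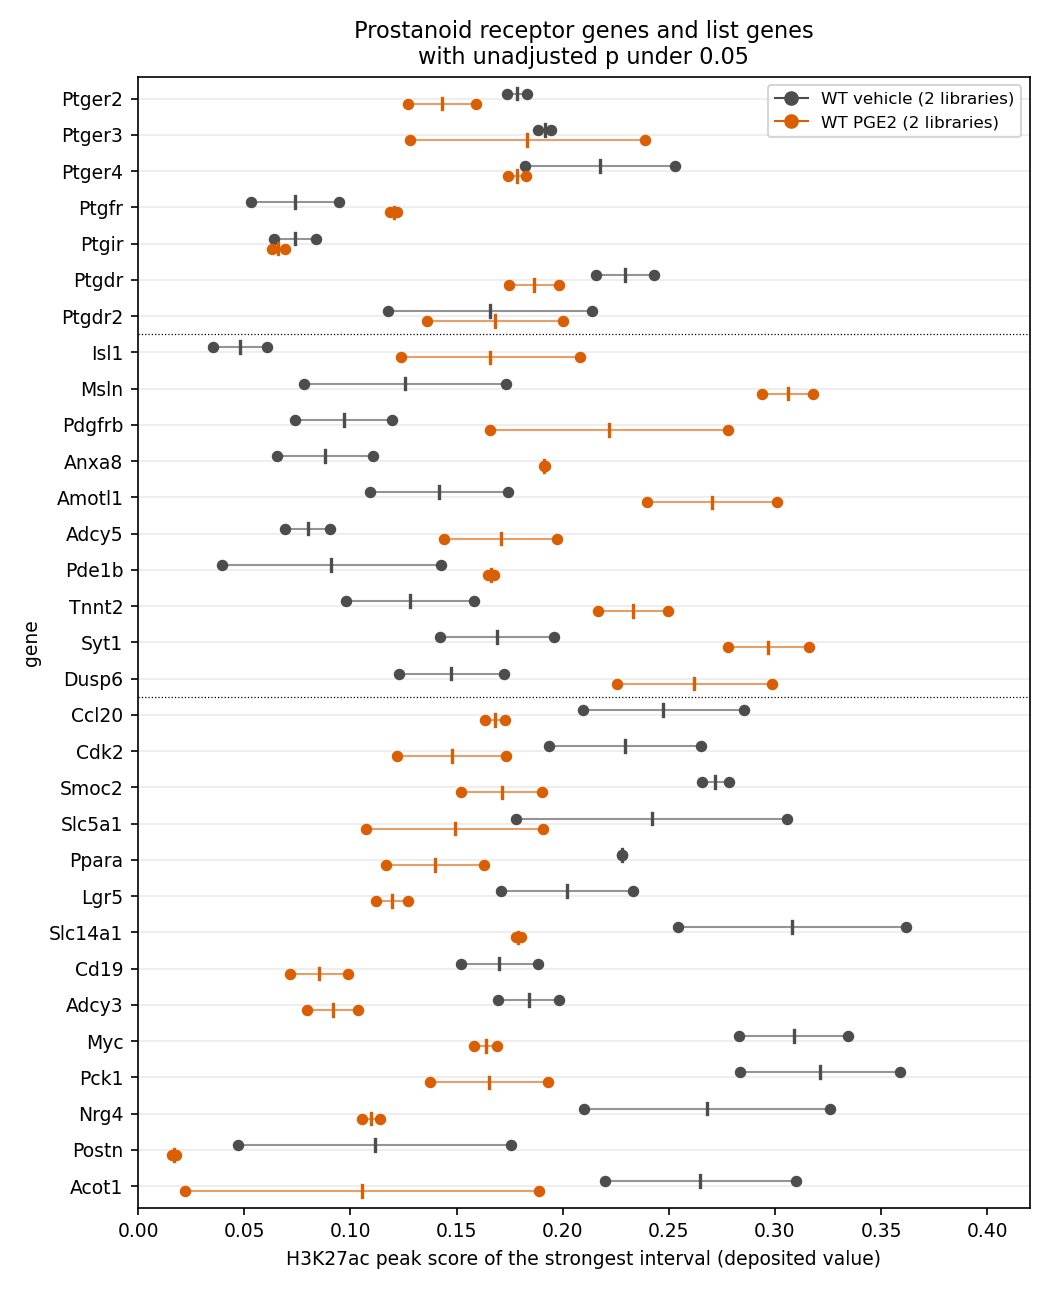
H3K27ac peak score (horizontal axis, deposited value) of the strongest interval of the 7 prostanoid receptor genes (above the first dotted line) and of the list genes with an unadjusted p under 0.05, higher with PGE2 above the second dotted line and lower below it. Points are the 2 libraries of a group, joined by a line, and ticks are means; of 25 such genes 24 are drawn, and the 25 are 4.98% of 502 list genes, beside 6.10% of all genes.

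The promoter letters were read where an interval covered the transcription start. Motifs were searched on both strands in 300-base RefSeq windows of GRCm38.p6, 250 bases before to 50 after the start. Over 17491 genes, the full cAMP response element TGACGTCA was found in 2.54%, its core TGACG, which the full element contains, in 26.2%, the TCF/LEF motif CTTTGAT in 3.74%, the AP-1 motif TGANTCA in 8.12% and the TEAD motif GGAATG in 15.5%. Intervals covering a start with the full element had a median change of -0.015 (303 intervals), and those without it -0.023 (7684 intervals). The widest gap was at AP-1, with -0.005 over 693 intervals with the motif and -0.024 over 7294 without. Of 122 list genes whose strongest interval covered their start, 4 had the full element. They are shown because CREB binds these letters, with the element in capitals, as the 250 bases before the start: Cldn7 (a claudin of tight junctions, chr11:69965171-69965420, plus strand), Maff (a small Maf protein, chr15:79347270-79347519, plus strand), Mcm5 (a subunit of the replicative helicase, chr8:75109259-75109508, plus strand) and Rpl13 (a ribosomal protein, chr8:123102100-123102349, plus strand). Fosb is added for the core alone (chr7:19310046-19310295, minus strand).

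Cldn7: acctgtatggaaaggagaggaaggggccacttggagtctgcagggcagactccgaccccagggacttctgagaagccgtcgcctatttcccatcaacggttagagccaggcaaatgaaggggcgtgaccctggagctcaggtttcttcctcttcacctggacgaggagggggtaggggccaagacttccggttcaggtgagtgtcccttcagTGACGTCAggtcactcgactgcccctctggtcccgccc

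Maff: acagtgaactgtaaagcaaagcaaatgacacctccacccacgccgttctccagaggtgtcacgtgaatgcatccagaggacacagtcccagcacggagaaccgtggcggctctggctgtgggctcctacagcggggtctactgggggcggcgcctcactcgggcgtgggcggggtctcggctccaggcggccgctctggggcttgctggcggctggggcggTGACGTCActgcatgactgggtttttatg

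Mcm5: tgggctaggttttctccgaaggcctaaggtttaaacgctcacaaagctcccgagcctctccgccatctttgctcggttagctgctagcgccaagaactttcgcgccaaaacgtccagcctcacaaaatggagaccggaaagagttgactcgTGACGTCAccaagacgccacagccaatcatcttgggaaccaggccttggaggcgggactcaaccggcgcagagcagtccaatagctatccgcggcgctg

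Rpl13: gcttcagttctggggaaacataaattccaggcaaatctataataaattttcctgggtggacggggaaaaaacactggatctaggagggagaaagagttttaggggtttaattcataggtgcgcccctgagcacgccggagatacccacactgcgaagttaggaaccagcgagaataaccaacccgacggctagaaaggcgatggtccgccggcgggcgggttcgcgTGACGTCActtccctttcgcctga

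Fosb: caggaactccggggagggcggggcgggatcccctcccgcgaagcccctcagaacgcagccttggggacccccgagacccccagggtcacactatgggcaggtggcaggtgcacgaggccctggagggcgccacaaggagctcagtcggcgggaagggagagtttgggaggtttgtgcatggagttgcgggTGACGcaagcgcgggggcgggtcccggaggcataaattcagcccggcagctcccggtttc

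The element began 38 bases before the start in Cldn7, 29 in Maff, 99 in Mcm5 and 24 in Rpl13. The scores at these 4 starts did not share a direction. Cldn7 was at 0.222 and 0.260 with vehicle and 0.297 and 0.318 with PGE2 (0.29 ± 0.17, limma adjusted p = 0.886). Maff was at 0.127 and 0.274 with vehicle and 0.194 and 0.139 with PGE2 (-0.16 ± 0.25, adjusted p = 0.968). Mcm5 and Rpl13 had changes of 0.03 ± 0.21 and 0.22 ± 0.26, with overlapping groups. At Fosb, whose core lies 60 bases before the start, vehicle was at 0.173 and 0.0987 and PGE2 at 0.0591 and 0.139. A match of letters is a description and not a measured binding site.

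Crypt stem cell genes were mostly lower. By gene mean 17 of 19 were lower (median -0.126), 4 of them under an unadjusted p of 0.05 against 4.71% of all gene means lower at that level, and by the strongest interval 13 of 20 (median -0.129, from -0.199 without vehicle replicate 1 to -0.037 without vehicle replicate 2). Cdca7, a Myc-responsive gene of cycling crypt cells, had a gene mean change of -0.46 ± 0.11 (limma adjusted p = 0.366), beside -0.14 at its strongest interval. Sox9, a crypt transcription factor, followed with -0.41 ± 0.12 (adjusted p = 0.407), and Olfm4, a secreted stem cell marker, with -0.39 ± 0.11 (adjusted p = 0.410). Sox9 shows how the choice of interval matters, since its strongest interval was higher by 0.26 ± 0.26. At Lgr5, the R-spondin receptor that marks crypt base columnar cells, the strongest interval was at 0.171 and 0.233 with vehicle and 0.127 and 0.112 with PGE2 (-0.54 ± 0.24, adjusted p = 0.851). Smoc2, an extracellular matrix protein of stem cells, was at 0.265 and 0.278 with vehicle and 0.152 and 0.190 with PGE2 (-0.53 ± 0.20, adjusted p = 0.804). At both genes the PGE2 libraries lay wholly below vehicle, as they did for 19.4% of all genes.

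Wnt and EGF pathway genes held 2 of the 5 list genes with an unadjusted p under 0.05 in the same direction by both measures. Over all genes 6.10% were at that level by the strongest interval and 7.98% by gene mean. The gene mean includes the strongest interval, so the 2 measures are not independent. The share of all genes at that level by both measures is not given here. The counts of 5 and 2 therefore have no background to be set against. Nrg4, an ERBB4 ligand, was at 0.210 and 0.326 with vehicle and 0.106 and 0.114 with PGE2 (-0.94 ± 0.21, limma adjusted p = 0.697). The interval lies inside the gene (chr9:55249686-55251706), and its gene mean was -0.27 ± 0.10. Myc, a proto-oncogene driven by Wnt in crypts, was at 0.283 and 0.335 with vehicle and 0.169 and 0.158 with PGE2, at an interval 44414 bp from the gene (-0.72 ± 0.18, adjusted p = 0.713; chr15:61936707-61940927). The 21 intervals nearest to Myc had a mean change of -0.26 ± 0.11. The rest of these lists gave no shared direction: 12 of 22 Wnt receptor, feedback and TCF genes were lower (median -0.024, above 0 after median centring), and 8 of 13 EGF family genes (median -0.079, above 0 without either vehicle library).

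Genes of mature absorptive and Paneth cells were lower more often than the background. Of 30 enterocyte genes 22 were lower (median -0.163, between -0.166 and -0.061 under the 8 alternatives) and 11 lay wholly below vehicle against 19.4% of all genes. Slc5a1, the sodium-glucose transporter SGLT1, was at 0.178 and 0.306 with vehicle and 0.191 and 0.107 with PGE2 (-0.53 ± 0.24, limma adjusted p = 0.851), with overlapping groups, and its gene mean was -0.23 ± 0.10. Apoa4, an apolipoprotein of chylomicrons, was at 0.187 and 0.202 with vehicle and 0.119 and 0.132 with PGE2 (-0.46 ± 0.24, adjusted p = 0.873). Anpep, a brush border aminopeptidase, had a gene mean change of -0.38 ± 0.11 (adjusted p = 0.410), while Alpi, the intestinal alkaline phosphatase, stood out on the higher side with 0.51 ± 0.16 (adjusted p = 0.468). The strongest interval of Alpi, over its start, changed by only 0.05. Of 15 Paneth cell and antimicrobial genes 13 were lower (median -0.183), and without vehicle replicate 2 the median was 0.015. Reg3g, an antibacterial lectin, was at 0.193 and 0.255 with vehicle and 0.174 and 0.120 with PGE2 (-0.46 ± 0.24, adjusted p = 0.873). Of 23 PPAR and fatty acid oxidation genes 17 were lower (median -0.104, 0.022 without vehicle replicate 2). Ppara, the fatty acid receptor itself, was at 0.228 in both vehicle libraries and 0.163 and 0.117 with PGE2 (-0.54 ± 0.22, adjusted p = 0.825). Acot1, an acyl-CoA thioesterase with near-identical neighbours, was at 0.310 and 0.220 with vehicle and 0.189 and 0.0221 with PGE2 (-1.19 ± 0.42, adjusted p = 0.793).

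Fetal-like and junctional genes were more often higher by the strongest interval than the 47.9% of all genes. Of 24 fetal-like and regenerative genes, which reappear in damaged epithelium, 15 were higher by the strongest interval (median 0.092), but 9 of 19 by gene mean (median -0.006). Msln, mesothelin, was at 0.0780 and 0.173 with vehicle and 0.294 and 0.318 with PGE2, 952 bp beyond the gene (1.04 ± 0.28, limma adjusted p = 0.765). Anxa8, an annexin of regenerating epithelium, was at 0.111 and 0.0656 with vehicle and 0.192 and 0.191 with PGE2 over its start (0.79 ± 0.29, adjusted p = 0.801). Amotl1, an angiomotin that holds YAP at junctions, was at 0.109 and 0.174 with vehicle and 0.301 and 0.240 with PGE2 (0.73 ± 0.23, adjusted p = 0.793). The 25 YAP, TEAD and Hippo genes as a list were split, 12 higher and 13 lower. Of 20 keratin and junction genes 16 were higher (80.0%, median 0.104), and without vehicle replicate 1 the median was -0.038. Of 16 enteroendocrine genes 9 were higher, near the background share (median 0.179), and near gene ends 2 of 7 were (median -0.260).

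The starts of Anxa8 and Slc5a1 are shown as 2 promoters under intervals with an unadjusted p under 0.05 whose changes had opposite signs. They are the 250 bases before each start (GRCm38.p6, Anxa8 at chr14:34085729-34085978 and Slc5a1 at chr5:33103969-33104218, both plus strand), and neither RefSeq window held the cAMP response element, its core, the AP-1 or the TCF/LEF motif.

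Anxa8: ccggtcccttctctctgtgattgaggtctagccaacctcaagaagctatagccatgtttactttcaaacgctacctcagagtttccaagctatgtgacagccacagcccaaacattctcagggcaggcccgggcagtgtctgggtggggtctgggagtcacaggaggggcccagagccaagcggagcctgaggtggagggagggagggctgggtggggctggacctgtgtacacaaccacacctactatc

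Slc5a1: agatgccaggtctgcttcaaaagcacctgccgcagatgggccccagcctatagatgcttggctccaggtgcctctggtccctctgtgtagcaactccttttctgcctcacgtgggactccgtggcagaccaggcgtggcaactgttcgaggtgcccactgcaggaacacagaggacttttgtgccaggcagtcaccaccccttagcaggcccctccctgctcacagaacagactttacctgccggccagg

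Markers of cell types that organoids of crypt epithelium should lack also had medians away from 0 by the strongest interval. Of 13 endothelial marker genes 10 were lower (median -0.123, and -0.022 by gene mean). Of 12 liver and lung genes 8 were lower (median -0.131, but 0.044 without vehicle replicate 1), and of 14 immune genes 9 (median -0.182, -0.045 by gene mean and 0.001 without vehicle replicate 2). Of 14 muscle and neural genes 10 were higher (median 0.253, the list furthest above 0, and 0.057 by gene mean). The summed scores of the endothelial markers were 2.34 and 2.36 with vehicle and 2.07 and 2.04 with PGE2, and those of the muscle and neural markers 1.69 and 1.96 against 2.42 and 2.14, so that in both the groups did not overlap. Fibroblast markers summed to 1.49 and 1.23 against 1.24 and 1.20. Of their members 0 with an interval were at 0 in all 4 libraries. Col1a2, Col3a1, Lum, Twist1, Gli1, Cd79a, Tyrobp, Cd68, Sox18, Myh6, Ckm, Gfap, Gap43, Fgb and Sftpa1 had no interval. What part signal of this kind had in the epithelial lists was not tested. Of 29 lists, 7 kept a median below 0 under all 8 alternatives (prostanoid receptors, cAMP and CREB targets, stem cell markers, AP-1 subunits, enterocyte genes, DNA replication genes and endothelial markers) and 1 above it (muscle and neural markers). The medians over all genes were below 0 too, at -0.014 by strongest interval and -0.019 by gene mean. Near the latter by gene mean were DNA replication genes (-0.0005, 6 of 12 lower), prostanoid receptors (-0.018, 3 of 6) and endothelial markers (-0.022). The cAMP and CREB targets were at -0.087, stem cell markers at -0.126, AP-1 subunits at -0.113 and enterocyte genes at -0.110.

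**Figure D3:**
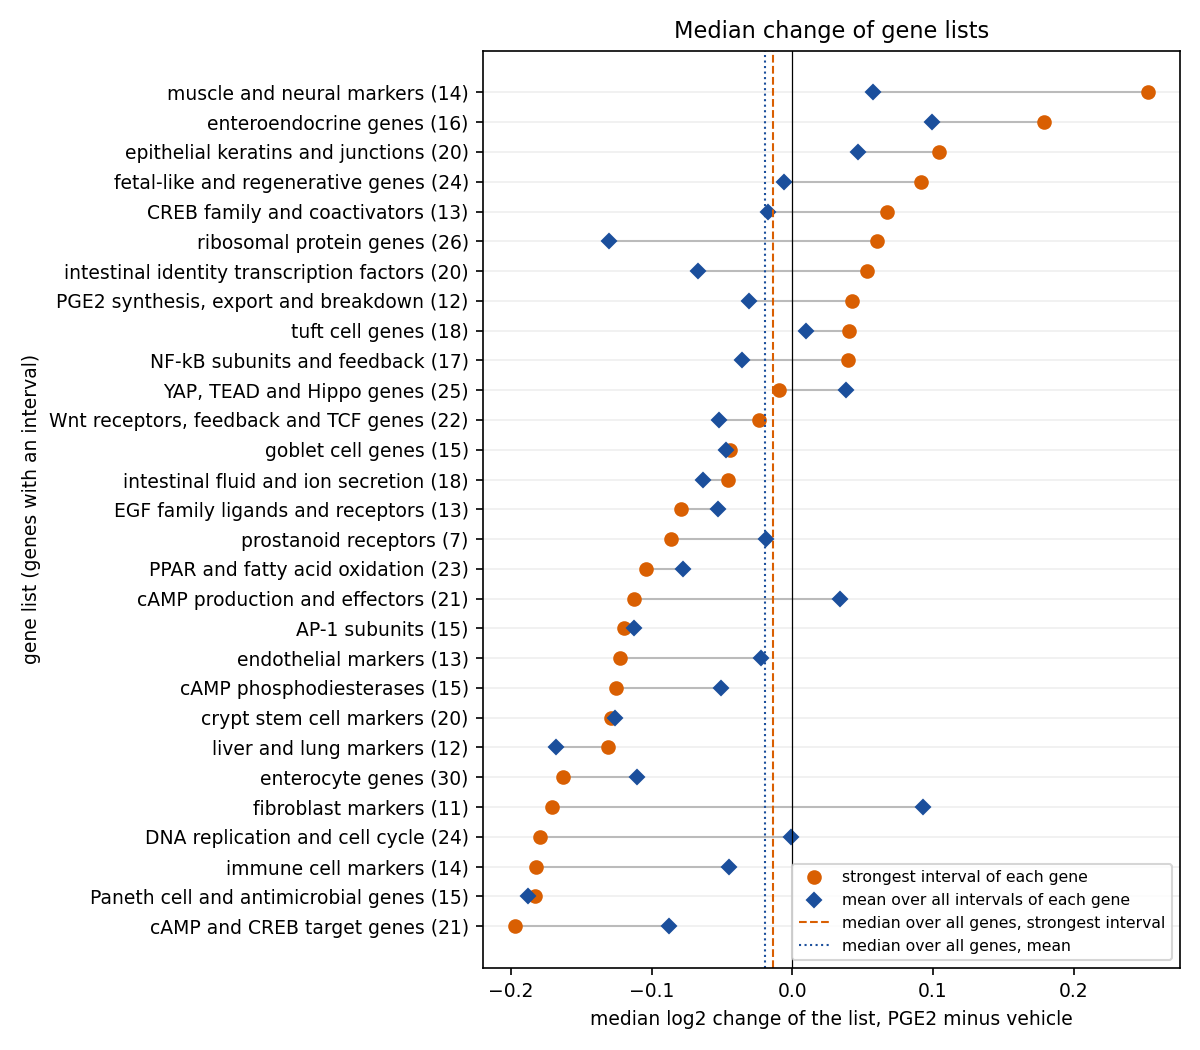
Median log2 change, PGE2 minus vehicle (horizontal axis), of 29 gene lists, by the strongest interval of each gene (circles) and by the mean over all its intervals (diamonds); broken and dotted lines are the medians over all genes, -0.014 and -0.019. The cAMP and CREB target list is lowest at -0.197 and the muscle and neural marker list highest at 0.253 by strongest interval.

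Averaging over all intervals of a gene gave 1 gene that passed. For 11081 genes with at least 3 intervals, limma with Benjamini-Hochberg adjustment called 1 (0.00902%) at an adjusted p under 0.05, and 884 (7.98%) were under an unadjusted p of 0.05. The gene was Clcf1, which encodes a cytokine that signals through the ciliary neurotrophic factor receptor and STAT3, and its mean rose by 0.93 ± 0.12 on the log2 scale (adjusted p = 0.0272). Its 3 intervals lie in a row on chromosome 19. The first (chr19:4207839-4209678) was at 0.0914 and 0.0350 with vehicle and 0.186 in both PGE2 libraries. The second (chr19:4212519-4215361) was at 0.0767 and 0.107 with vehicle and 0.213 and 0.160 with PGE2, and the third (chr19:4216105-4217057) at 0.0563 and 0.0612 against 0.119 and 0.264. All 3 intervals were higher in both PGE2 libraries. The call ended without any 1 of the 4 libraries (adjusted p from 0.130 to 0.447), with the 4 libraries alone (0.423), after median centring (0.0798) or quantile normalization (0.127), and without replicate 1 or 2 of the knockout PGE2 group (0.104 and 0.115). The next genes were not past the threshold: Ndufs1, a complex I subunit (0.67 ± 0.12, adjusted p = 0.327), and Gpr132 (0.64 ± 0.12, adjusted p = 0.327) on the higher side, Lrrc39 (-0.62 ± 0.11, adjusted p = 0.287), Larp6, a regulator of collagen mRNA (-0.55 ± 0.11, adjusted p = 0.327), and Cp, ceruloplasmin (-0.49 ± 0.10, adjusted p = 0.327), on the lower. At each of these 5 the PGE2 libraries lay wholly to 1 side of vehicle, as they did above it for 17.8% and below it for 24.5% of all gene means.

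Averages over 1 Mb of chromosome came last. The difference between PGE2 replicate 1 and vehicle replicate 1 and that between replicates 2, which share no library, had a Pearson correlation of 0.061 across intervals, 0.186 across gene means and 0.422 across 2095 windows (0.059, 0.182 and 0.473 with the numbers crossed). Neighbouring features are not independent, so these are descriptions. Of the 2095 windows with at least 10 intervals, 9 (0.430%) passed in limma with Benjamini-Hochberg adjustment, 3 higher and 6 lower, and 217 (10.4%) were under an unadjusted p of 0.05. The spread used for a window came almost wholly from a trend over all windows (1358 prior against 6 residual degrees of freedom). It hardly reflects the libraries of that window. The count and the split depended on scaling and on libraries. Median centring gave 123 windows (72 higher, 51 lower), quantile normalization 111 (49 higher, 62 lower), and the 4 libraries alone 99. Without 1 of the 4 compared libraries 0 to 2 passed (1 without vehicle replicate 1, 1 without vehicle replicate 2, 0 without PGE2 replicate 1, 2 without PGE2 replicate 2), and without knockout PGE2 replicate 1 or 2 there were 124 and 130.

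The window that fell furthest, on chromosome 1 from 187 to 188 Mb, holds Spata17, Gpatch2 and Esrrg. Over its 101 intervals the median score was 0.147 and 0.146 with vehicle and 0.107 and 0.0969 with PGE2 (mean log2 change -0.33 ± 0.07, limma adjusted p = 0.00743), and 75 of the intervals were lower. Within it, the gene mean of Esrrg, an orphan nuclear receptor of oxidative metabolism, was -0.43 ± 0.12 over 63 intervals, and that of Gpatch2 -0.05 ± 0.11. The window on chromosome 13 from 10 to 11 Mb lies in and around Chrm3, the muscarinic receptor through which acetylcholine stimulates epithelial secretion. Its 148 intervals had medians of 0.134 and 0.130 with vehicle and 0.0999 and 0.0929 with PGE2 (-0.30 ± 0.07, adjusted p = 0.00743), and 122 were lower. Fshr, the follicle-stimulating hormone receptor gene, is the one gene of the window on chromosome 17 from 89 to 90 Mb (medians 0.121 and 0.0932 against 0.0847 and 0.0729, change -0.29 ± 0.08, adjusted p = 0.0353), and it was the one window of the 9 whose call was lost after median centring (adjusted p = 0.0525) or quantile normalization (0.0695). Windows on chromosome 5 from 133 to 134 Mb (-0.30 ± 0.07, adjusted p = 0.00743) and chromosome 1 from 113 to 114 Mb (-0.26 ± 0.07, adjusted p = 0.0492) hold no protein-coding gene of the reference. The window on chromosome 1 from 174 to 175 Mb (-0.29 ± 0.07, adjusted p = 0.0217) holds a cluster of olfactory receptor genes beside Fmn2, a formin. All 6 windows that fell also had changes below 0 in the other groups. With PGE2 in the knockout they ran from -0.25 to -0.09, beside a median of -0.111 over all windows. With arachidonic acid in wild type, against the same vehicle libraries, they ran from -0.29 to -0.18, beside a median of -0.031.

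The windows that rose had few intervals. The amylase window on chromosome 3 from 113 to 114 Mb (12 intervals) had medians of 0.0889 and 0.0761 with vehicle and 0.134 and 0.124 with PGE2 (0.32 ± 0.07, limma adjusted p = 0.00743). That on chromosome X from 33 to 34 Mb (20 intervals, the Btbd35f genes) had medians of 0.0674 and 0.0775 with vehicle and 0.121 and 0.119 with PGE2 (0.37 ± 0.09, adjusted p = 0.0164). Amylase and Btbd35f genes lie in groups of closely similar copies, between which reads cannot always be placed, and olfactory receptor genes are a family of related genes. How reads were placed in these 3 windows was not tested, and they are uncertain in that respect. The third that rose, on chromosome 4 from 127 to 128 Mb (21 intervals), holds Sfpq, a splicing factor, and Zmym1 and Zmym6 (0.27 ± 0.07, adjusted p = 0.0205). Of its 21 intervals 18 were higher, while the gene mean of Zmym6 was -0.09 ± 0.20. With PGE2 in the knockout the amylase, Btbd35f and Sfpq windows changed by -0.15, 0.20 and 0.07. With arachidonic acid in wild type they changed by 0.10, 0.015 and 0.014. The vehicle and PGE2 libraries did not overlap in any of the 9 windows, and over all windows PGE2 lay wholly above vehicle in 20.4% and wholly below in 34.0%.

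**Figure D4:**
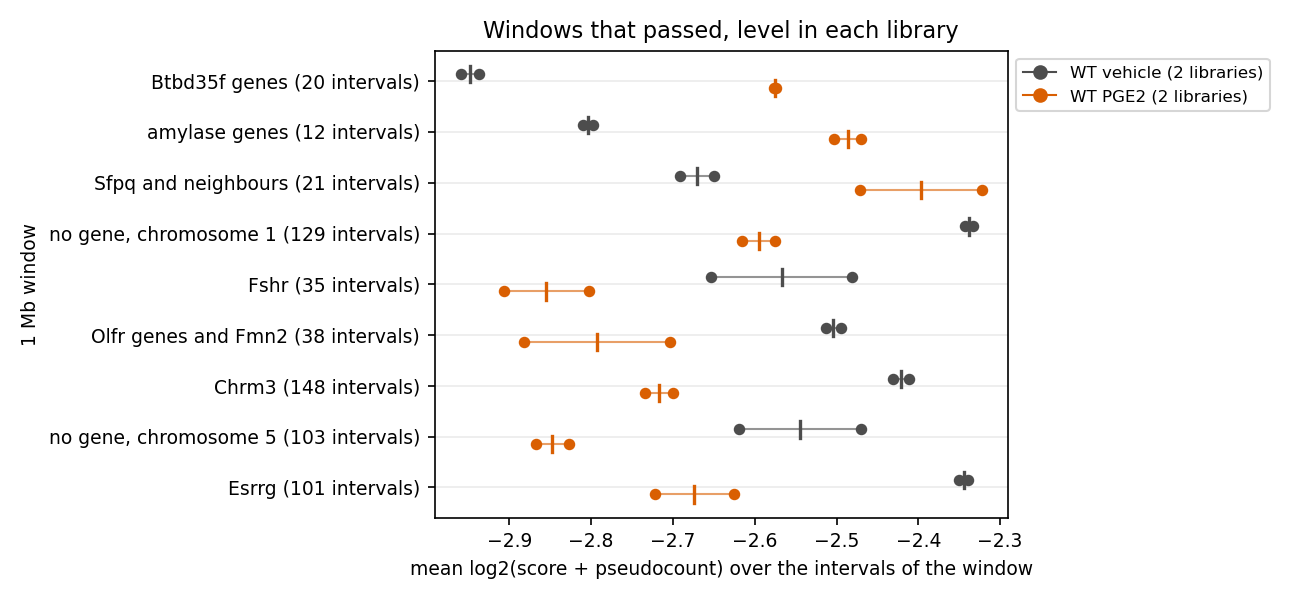
Level of the 9 windows that passed, as the mean of log2(score + 0.0579) over the intervals of the window (horizontal axis), in the 2 vehicle and the 2 PGE2 libraries; points are libraries, joined within a group, and ticks are means. The 3 windows at the top lie higher with PGE2 and the 6 below them lower, with changes from 0.37 to -0.33.

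The same change was set against that in Ptger4 knockout organoids, which lack EP4, by limma's test of the difference between the genotypes. It passed at 0 SEACR intervals, 0 gene means and 0 MACS2 intervals, while 10691 (6.42%), 949 (8.56%) and 32 (4.56%) were under an unadjusted p of 0.05. Of the windows 18 passed (0.859%), among them the amylase window, and that count was 1 without knockout PGE2 replicate 2 and 1029 without replicate 1. Without knockout PGE2 replicate 2, 7 SEACR intervals, 0 gene means and 0 MACS2 intervals passed, with 13599, 979 and 37 under an unadjusted p of 0.05. Without replicate 1 these counts were 30, 0 and 32, with 16546, 2199 and 99.

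The direction of a window went with how many intervals it held. With windows ordered into 5 equal classes, the median change was 0.047 in the class with the fewest intervals (10 to 34), 0.006, -0.012 and -0.032 in the next 3, and -0.045 in the class with the most (118 to 207). The share of windows higher with PGE2 went from 64.4% to 19.3% along this order. Across the 2095 windows the Spearman correlation of the change with the number of intervals was -0.32, and -0.04 with the number of protein-coding genes. With the mean level over the 8 libraries outside the comparison it was -0.32. The trend with the number of intervals was not limited to this comparison. Its correlation was -0.50 for the PGE2 change in the knockout, whose PGE2 replicate 2 stood apart, and -0.15 for arachidonic acid in wild type. Neighbouring windows and all windows of a library share depth and scaling, so these are descriptions. The 3 windows that rose were all in the class with the fewest intervals, and the 6 that fell were spread over 3 other classes, 2 in each.

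**Figure D5:**
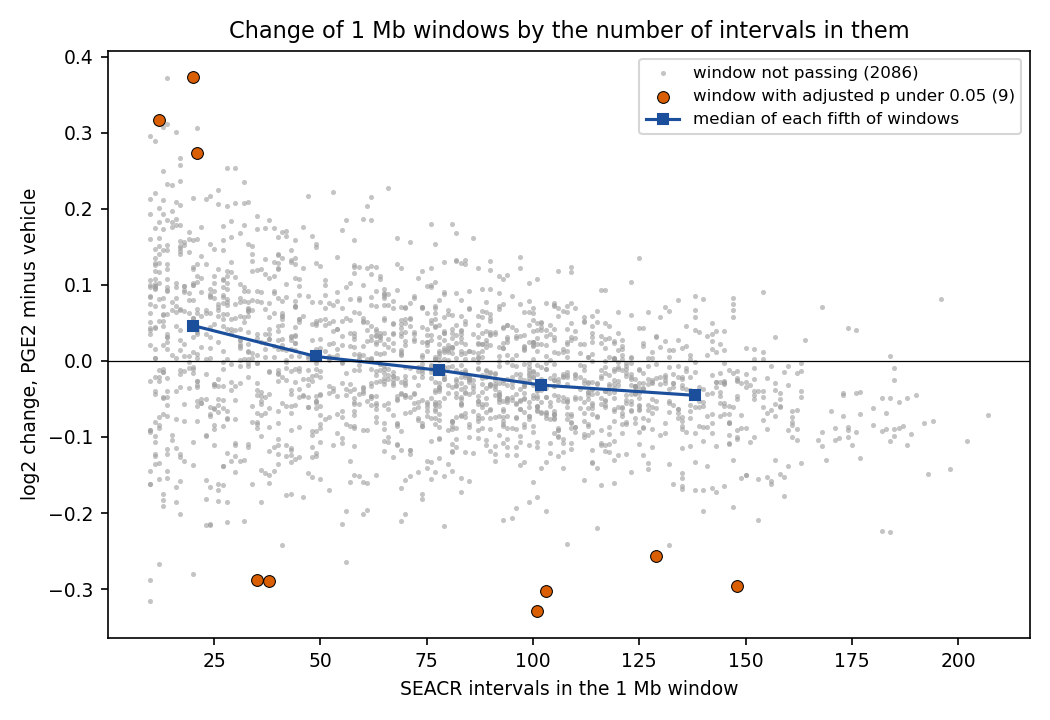
Mean log2 change, PGE2 minus vehicle (vertical axis), of 2095 windows of 1 Mb against the number of SEACR intervals in each (horizontal axis); large points are the 9 windows that passed and squares the medians of 5 equal classes of windows. The medians go from 0.047 in the windows with the fewest intervals to -0.045 in those with the most.

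The second caller gave no call. Of 701 MACS2 intervals (pseudocount 0.182) 0 passed in limma, 34 (4.85%) were under an unadjusted p of 0.05, and 50.9% were higher with PGE2 (median 0.008). The spread used for each came from the trend over all MACS2 intervals. Sh2d6, a tuft cell gene, was the strongest on the higher side, at 0.143 and 0.235 with vehicle and 0.509 and 1.14 with PGE2 (1.38 ± 0.50, adjusted p = 0.874; chr6:72528758-72529008). The SEACR interval in the same gene was at 0.188 and 0.217 with vehicle and 0.279 and 0.3003 with PGE2 (0.42 ± 0.21, adjusted p = 0.867). On the lower side Zfp808, a zinc finger gene, was at 0.732 and 0.673 with vehicle and 0.217 and 0.117 with PGE2 (-1.35 ± 0.52, adjusted p = 0.874), and Nutf2, a nuclear import factor, at 1.27 and 0.788 against 0.291 and 0.360 (-1.23 ± 0.47, adjusted p = 0.874). Without replicate 1 or 2 of the knockout PGE2 group, 2 MACS2 intervals at the start of chromosome 9 passed, with scores from 15.9 to 39.9 with vehicle and 24.4 to 52.5 with PGE2, far above a typical interval.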

How the data were processed

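H3K27ac was profiled by CUT&RUN in 12 libraries of mouse intestinal organoids, 2 in each of 6 groups. The authors deposited a signal, the peak score, per interval and library for the callers SEACR and MACS2 on mm10, per the submitters' processing notes; versions, aligner, settings, scaling and depth: not given in the sources used here. Columns labelled as control were read as vehicle. An interval was kept when above the pseudocount (the 10th percentile of non-zero scores) in at least 2 libraries. Genes were the nearest protein-coding gene within 50 kb. Group differences were fitted with limma 3.58.1 (R 4.3.3) on log2(score + pseudocount) over all 12 libraries with Benjamini-Hochberg adjustment (threshold 0.05), on intervals, on means over genes with at least 3 intervals and on 1 Mb windows with at least 10. The fit was tested on simulated data. Summaries used Python 3.11.15 with pandas 2.3.3 and scipy 1.17.1.

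The comparison and the 29 gene lists (560 of 561 symbols matched) were chosen with earlier results of these data known. Named were the prostanoid receptors, the 10 intervals per direction with the smallest p where none passed (non-overlapping groups, with a gene), 3 gene means, windows and MACS2 intervals per direction, and up to 3 members per list by smallest p of the strongest interval or with p under 0.05 by both measures. Members named by gene mean alone, the genes named for their promoters, windows and genes beyond that rule, and the chromosome 9 intervals were chosen after their values were seen. Selected but not reported here are 1 interval and a few genes. Promoter sequences are RefSeq's for GRCm38.p6, for 17491 of 21883 protein-coding genes. Interval coordinates are as deposited. Same-numbered vehicle and PGE2 libraries did not deviate together (r = 0.0026), so replicate numbers were not taken as pairs. Alternatives covered pseudocounts, filters, scaling, the libraries in the fit, a replicate block and leaving out each library.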

Additional observations from a re-analysis of the deposited data

Results flagged for a closer look

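The PGE2 change differed between knockout and wild-type organoids in 18 of 2095 windows of 1 Mb (0.859%), by limma's test of the difference with Benjamini-Hochberg adjustment. In 17 the knockout change was below the wild-type one, and the differences ran from -0.54 to 0.47. This was also the general direction: over all 2095 windows the median change was -0.111 in knockout and -0.018 in wild type. The count rested on the knockout PGE2 libraries: it was 1029 without replicate 1 of that group and 1 without replicate 2, the library that stood apart. The amylase window, on chromosome 3 from 113 to 114 Mb, was the one of the 18 that also passed in wild type alone. Its difference was -0.47 ± 0.10 (adjusted p = 0.00463), with a change of 0.32 in wild type and -0.15 in the knockout, and without knockout PGE2 replicate 2 its adjusted p was 0.132. Without that library 17 of the 18 windows were no longer past the threshold (adjusted p from 0.0996 to 0.542), and 1 was.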

How the results depend on the processing

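Under the alternatives tried, 1555 of 1593 values of 81 named features kept their direction and side of the threshold. Another 32 were no longer past it and 6 changed sign. Most of these features had not passed in the main fit and many were named for a small p, so keeping both was likely from the start. The 32 losses fell on Clcf1, with 9 of its 10 values, and on the named windows, which had passed. Among list medians under alternatives, 43 of 232 had the other sign. The 6 sign changes of named features came from leaving out 1 of the 4 compared libraries, under which F2 ran from -1.09 to 0.085, Guca2a from -0.025 to 0.73, Ptgdr2 from -0.28 to 0.35, Ptger3 from -0.42 to 0.25 and Ptgir from -0.19 to 0.024. No SEACR interval passed in limma except 1, not reported here, without knockout PGE2 replicate 1 (range 0 to 1 when 1 library was left out); the count under an unadjusted p of 0.05 was 5247 among intervals above the median score, 746 with a pseudocount 4 times larger, and 7839 to 11802 when 1 library was left out. For MACS2, 0 to 2 passed and 28 to 61 were under an unadjusted p of 0.05 when 1 library was left out. Gene means gave 0 calls under quantile normalization, median centring or the 4 libraries alone, and 0 to 1 when 1 library was left out; the 1 without PGE2 replicate 2 was not Clcf1. Windows gave 111, 123 and 99 calls under those 3 settings and 0 to 130 when 1 library was left out, and 437, 463 and 485 under an unadjusted p of 0.05, with 109 to 491. The 99 to 130 calls with the 4 libraries alone or without 1 knockout PGE2 library, and those after rescaling, held 8 or 9 of the 9. With the replicate block 0 SEACR intervals, 1 gene mean, 8 windows and 0 MACS2 intervals passed, and 9503, 832, 192 and 34 were under an unadjusted p of 0.05; no paired structure was seen. The settings that left out knockout PGE2 libraries for gene means, windows, MACS2 and the genotype difference were chosen after seeing the data. The cause of these shifts was not tested. Unknown depth and 2 libraries per group limit every value.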
